A study of Mus musculus with 8 samples.

Results

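The genes described here are 8 that mark the identity of sympathetic neuroblastoma: Mycn, Phox2a, Hand2, Gata2, Gata3, Isl1, Th and Dbh. They were chosen by name, by matching the gene symbol without regard to case, and all 8 were found among the 16980 genes of the expression table. Each was listed in all 8 libraries and had a mean level above the minimum required for testing.

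Neuro2A (N2A) is a single mouse neuroblastoma cell line. N2A cells were starved for 16 h in serum-free medium with bovine serum albumin and then received 2 µM HU210, an agonist of the cannabinoid 1 receptor (CB1R), or drug-free DMSO. mRNA was prepared after 2 h, after 4 h, after 6 h or after 8 h, the order in which values are listed below. Each of the 8 conditions is 1 library, made from mRNA pooled over 2 to 3 independent experiments, so a difference within 1 hour has no replicate check. The level of a gene is its FPKM, the number of fragments scaled to transcript length and library size, so that levels can be set side by side between genes. RNA of the whole culture was measured, so a lower level can mean fewer cells with the transcript or less transcript per cell, and these cannot be told apart.

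Sympathetic neurons arise from the neural crest, and neuroblastoma is a tumor of that lineage. A circuit of transcription factors that bind each other's genes, among them PHOX2A, HAND2, GATA2, GATA3 and ISL1, sets the noradrenergic state of these cells, and N-Myc, the product of Mycn, is the best known oncogene of the tumor. The enzymes TH and DBH carry out the first and the last step of noradrenaline synthesis and are the classical output of the circuit.

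The promoters of 4 of the genes are shown, those of Hand2 and Phox2a because HU210 and DMSO differed in the same direction for both at 4 h and at 6 h, and those of Th and Dbh because these enzyme genes are the output of the circuit. Each is the RefSeq promoter from 250 bases before to 50 bases after the start site, on the strand of the gene, and each matched the mm9 genome exactly once. The position is given in mm9. Capitals mark a searched motif, and a promoter without capitals held none of the letters searched.

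Hand2, chr8:59799530-59799829, plus strand: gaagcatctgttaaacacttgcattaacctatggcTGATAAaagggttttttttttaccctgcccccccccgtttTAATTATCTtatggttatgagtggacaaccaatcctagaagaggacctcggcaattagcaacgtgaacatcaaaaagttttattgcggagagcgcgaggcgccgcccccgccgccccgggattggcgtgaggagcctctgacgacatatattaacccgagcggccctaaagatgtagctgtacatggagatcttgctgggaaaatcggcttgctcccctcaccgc
Phox2a, chr7:108966577-108966876, plus strand: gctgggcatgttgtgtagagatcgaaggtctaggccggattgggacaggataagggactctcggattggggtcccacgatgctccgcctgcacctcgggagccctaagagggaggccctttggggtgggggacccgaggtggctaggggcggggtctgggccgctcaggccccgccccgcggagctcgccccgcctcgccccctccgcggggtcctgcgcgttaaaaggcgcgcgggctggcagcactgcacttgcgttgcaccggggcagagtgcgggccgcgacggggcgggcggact
Th, chr7:150085851-150086150, minus strand: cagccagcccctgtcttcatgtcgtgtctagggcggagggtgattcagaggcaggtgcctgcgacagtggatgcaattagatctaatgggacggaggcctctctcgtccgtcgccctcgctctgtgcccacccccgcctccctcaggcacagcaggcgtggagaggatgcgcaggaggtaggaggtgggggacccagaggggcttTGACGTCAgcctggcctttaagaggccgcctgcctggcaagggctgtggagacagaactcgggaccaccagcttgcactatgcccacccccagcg
Dbh, chr2:27020777-27021076, plus strand: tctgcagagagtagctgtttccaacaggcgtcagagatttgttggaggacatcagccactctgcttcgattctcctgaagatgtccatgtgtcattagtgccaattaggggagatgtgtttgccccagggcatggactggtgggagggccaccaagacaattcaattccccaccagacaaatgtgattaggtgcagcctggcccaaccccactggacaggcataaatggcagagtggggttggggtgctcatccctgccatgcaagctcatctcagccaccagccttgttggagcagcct

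Both strands were searched for 6 sets of letters in 9 promoters of the 8 genes, since Gata2 has more than 1. The cyclic AMP response element TGACGTCA stood in the Th promoter, with its first base 45 bases before the start (-45), and in 1.79% of all 32851 promoters. Hand2 held the GATA site TGATAA at -215, the homeodomain core TAATTA at -175 and the GATA site AGATAA on the other strand at -172. The last of these is read TTATCT and overlaps the homeodomain core. Isl1, whose promoter is not shown, held TGATAA at -115 and AGATAA at position 11 after the start. These letters are common: TGATAA stood in 9.05% of all promoters, AGATAA in 11.2% and TAATTA in 5.29%. The promoters of Mycn, Phox2a, Gata2, Gata3 and Dbh held none of them, nor the E-box CACGTG (7.15% of all promoters) or the TATA box TATAAA (13.6%). A match is a description of the letters and not of binding.

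The 8 genes spanned a wide range of levels, with the transcription factors above the enzymes. Hand2, which encodes a basic helix-loop-helix factor, was the highest, with a mean FPKM of 84.8 ± 14.8 (SD, n = 8 libraries), above 93.7% to 96.1% of the 15888 genes listed in every library. Phox2a, which encodes a paired-like homeodomain factor, had a mean of 41.1 ± 8.27. Gata2, which encodes a zinc finger factor, had a mean of 39.1 ± 3.99. Phox2a exceeded Gata2 in 4 of 8 libraries, so these neighbors in the order did not differ beyond their spread.

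Mycn followed at 11.8 ± 1.17 and Isl1, the gene of a LIM-homeodomain factor, at 9.46 ± 1.42. Mycn exceeded Isl1 in 7 of 8 libraries, but their ranges overlapped. Gata3, the second GATA factor of the circuit, had a mean FPKM of 4.64 ± 0.789. At the bottom of the order were Th, at 2.00 ± 0.174, and Dbh, at 1.14 ± 0.243, which exceeded only 26.5% to 32.4% of genes in a library. Of the neighboring pairs, Hand2 over Phox2a, Gata2 over Mycn, Isl1 over Gata3, Gata3 over Th and Th over Dbh held in 8 of 8 libraries, with ranges that did not overlap. The plot of levels by library shows this order on a log axis.

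**Figure D1:**
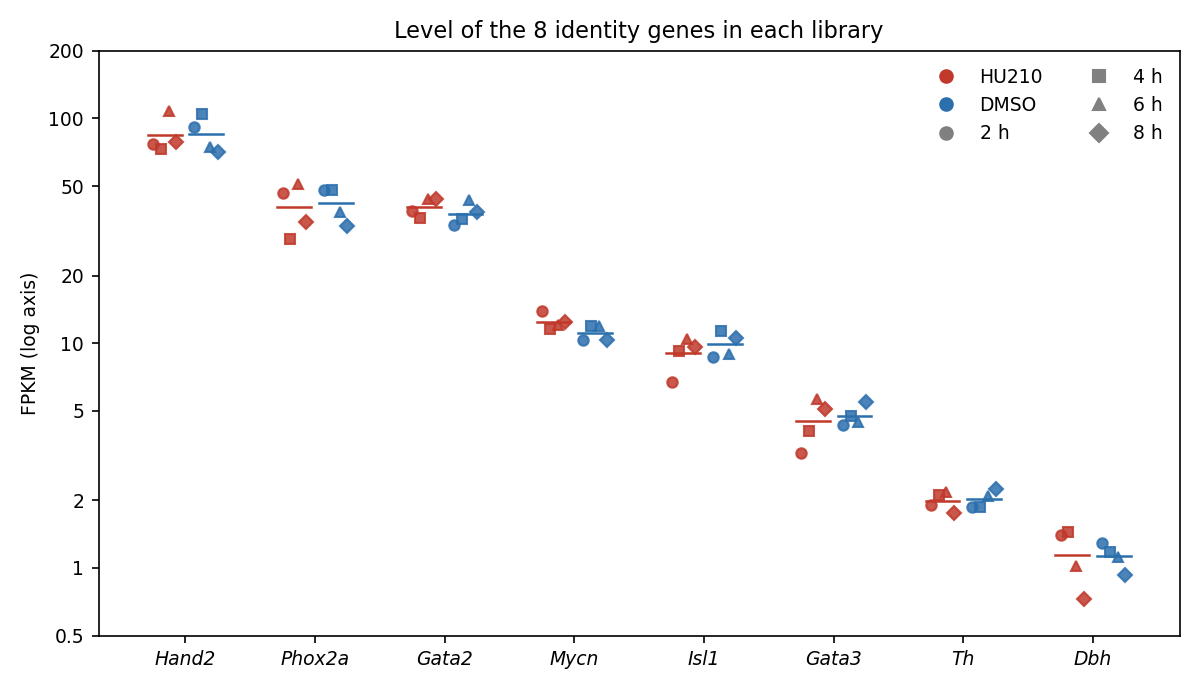
Level of the 8 genes in each library, as FPKM on a log axis, with HU210 in red, DMSO in blue, the marker shape for the hour and a line at the mean of the 4 libraries of a treatment. Hand2 lies between 70.5 and 107.9 and Dbh between 0.727 and 1.44, and the red and blue points overlap for every gene.

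The spread over the 8 libraries also differed between the genes. The coefficient of variation was 21.3% for Dbh, 20.1% for Phox2a, 17.5% for Hand2 and 17.0% for Gata3, all above the upper quartile of the 11306 genes tested, which was 15.9%. It was 15.01% for Isl1 and 10.2% for Gata2. It was lowest for Mycn, at 9.89%, and Th, at 8.70%, both below the median of 11.5%. For Th the highest library exceeded the lowest by 1.28-fold, and for Dbh by 1.98-fold. The quartiles pool genes of all levels, and Dbh, with a mean FPKM of 1.14, lies near the minimum of 1. Its spread was not compared with that of genes of like level.

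Markers of other identities were set beside these levels to check the label of the cells. The RET receptor gene Ret had an FPKM between 104.1 and 120.5. Lmo1, a neuroblastoma susceptibility gene, lay between 49.9 and 64.4. Of 27 further genes of the noradrenergic circuit, 18 were listed at any time point and 14 were listed throughout with a mean FPKM of at least 1. Tfap2a was looked up by symbol and was not found in the expression table, so its level is unknown.

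Genes of the mesenchymal neuroblastoma state were mixed. Vim, which encodes the intermediate filament vimentin, was at 690.4 to 887.8 and Fn1, the fibronectin gene, at 120.7 to 141.4. Several of its factors were near 0, since Prrx1 reached at most 0.045, Fosl1 0.041, Runx1 0.011 and Snai2 0.184, as did Cd44, a surface marker, at 0.106. Others were measured, with Wwtr1, which encodes the coactivator TAZ, at 8.14 to 11.8, Fosl2 at 7.61 to 10.5, Notch2 at 4.11 to 5.49, Runx2 at 1.11 to 3.10 and Egr3 at 0.607 to 2.32. Of the 16 genes in the list, 15 were listed at any time point, and 7 were listed throughout with a mean FPKM of 1 or more. The summed level of the list was 853.9 to 1037 with HU210 and 950.4 to 1012 with DMSO.

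Genes of the lists for other cell types were mixed as well. Chat, the gene of the acetylcholine-synthesizing enzyme, reached 0.032, although Ache, the acetylcholinesterase gene, lay between 3.57 and 16.3 and the ganglionic nicotinic receptor gene Chrna3 between 32.1 and 51.7. Among glial and neural crest genes, S100b reached 0.098, while Ngfr, the low-affinity neurotrophin receptor gene, was at 33.9 to 48.3. Of the 9 genes in that list, 3 were listed throughout with a mean FPKM of at least 1, Ngfr and Sox9 among them. The summed level of 11 fibroblast, blood and endothelial genes, of which 7 were listed, was 3.53 to 4.14 over all libraries. Among central neuron genes, Gad2 reached 0.023 and Slc17a7, a glutamate transporter gene, 0.125, but Pax6 was at 7.30 to 14.6 and the serotonin synthesis genes Tph2 and Tph1 at 2.08 to 3.13 and 1.22 to 1.69. Of 12 general neuron genes, 11 were listed, with Stmn2 at 128.9 to 156.7 and Prph, which encodes the intermediate filament peripherin, at 452.1 to 527.7. The transcription factors of the noradrenergic label were thus present in every library, and its 2 enzyme genes were low. Genes of other lists also reached the levels of these factors. Fn1 and Vim exceeded Hand2, and Ngfr and Chrna3 overlapped Phox2a and Gata2. A place in another list does not make a gene foreign to sympathetic cells, as with the ganglionic receptor gene Chrna3. Whether Ngfr marks another identity here was not tested. Level alone did not set the factors apart from the genes of these lists.

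Differences are given as the log2 of the ratio of FPKM + 1 in HU210 to FPKM + 1 in DMSO, which understates the change of low genes, and 1.3-fold, the lower of the study's cutoffs, is 0.38 on this scale. Genes of these other lists past 1.3-fold were counted among those tested. At 4 h 8.97% of all genes tested were higher and 19.9% lower by this much. Of 7 mesenchymal genes 1 was higher and 1 lower, of 3 neural crest genes 1 was higher, and 2 of 8 general neuron, 2 of 4 central neuron and 1 of 4 cholinergic genes were lower. The cholinergic gene was Ache, at -1.21, which was at 16.3 in the DMSO library of 4 h. Of the 2 fibroblast, blood and endothelial genes tested, 0 were past it. At 8 h, where 4.38% of all genes tested were higher, 3 of the 7 mesenchymal genes were, with log2 differences of 0.49 for Wwtr1, 0.48 for Egr3 and 0.49 for Runx2. At 6 h 0 of these 7 genes were higher and 1 lower, where 8.1% of all genes tested were past 1.3-fold in either direction. Their median was -0.12 at 6 h, beside 0.06 over all genes tested. At 8 h 1 of 8 general neuron and 1 of 4 central neuron genes were also higher, and 1 of 3 neural crest genes was lower.

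**Figure D2:**
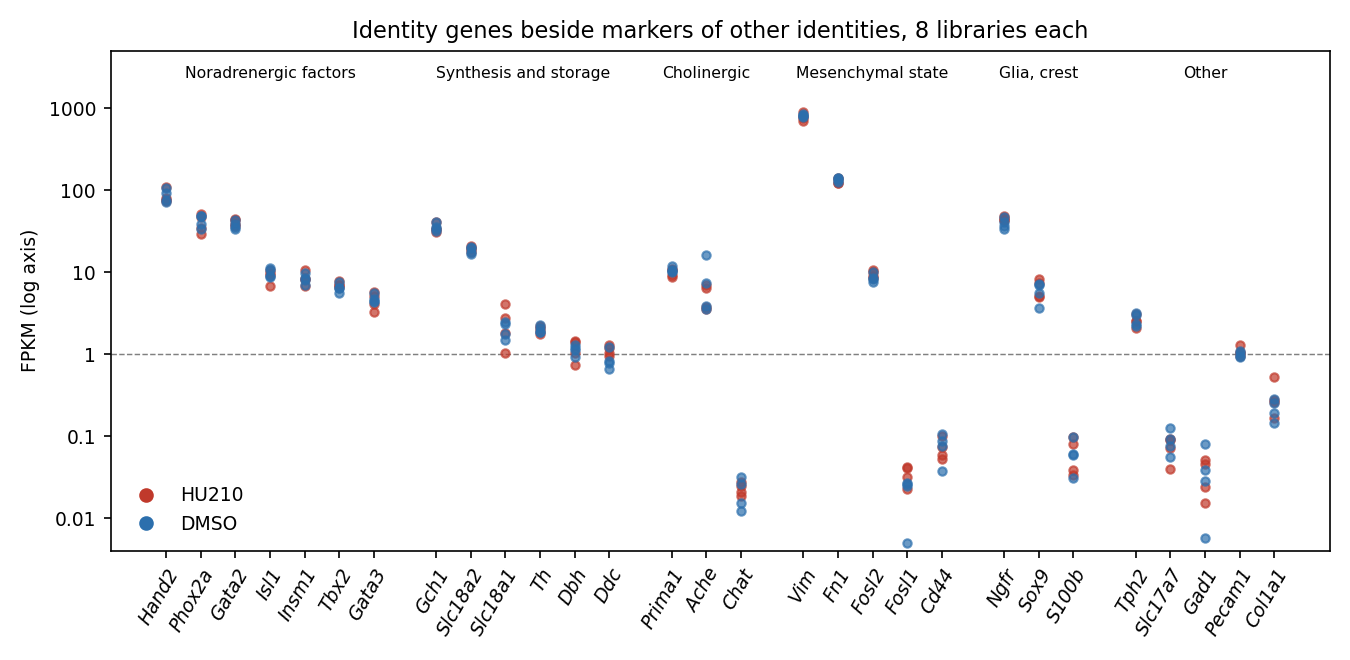
FPKM on a log axis of selected genes of the noradrenergic circuit, of amine synthesis and storage and of other identities, 1 point per library, with HU210 in red and DMSO in blue and a dashed line at an FPKM of 1. Values below 0.005 are drawn at 0.005. Th, Dbh and Ddc lie near the line, Hand2 and Phox2a far above it, and Chat, Fosl1, Cd44 and S100b at or below about 0.1. Of the genes drawn for other identities, those above the line include Vim, Fn1, Ngfr, Ache, Prima1, Fosl2 and Tph2, and Sox9 had a mean of at least 1.

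Mycn lies on the minus strand of chromosome 12, from 12942902 to 12948720 in mm9. Its FPKM was 13.9, 11.5, 12.0 and 12.4 with HU210 from 2 h to 8 h. The DMSO libraries were at 10.3, 11.9, 11.9 and 10.3 in the same order. The HU210 library at 2 h was the highest of the 8 and the DMSO libraries at 2 h and 8 h were the lowest, while at 4 h and 6 h the levels were almost alike.

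For Mycn the log2 difference was 0.40, -0.05, 0.01 and 0.24 in order of time. Mycn was thus past 1.3-fold at 2 h, where 1.49% of all genes tested were higher by that much and 5.4% were higher or lower. With the 4 DMSO libraries averaged as the reference, the value at 2 h was 0.31, below the cutoff. Over the 4 time points the log2 difference was 0.15 ± 0.10 (SE, limma with the time point as a block, adjusted p = 1), higher with HU210 at 3 of 4 time points.

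Of the MYC family, Myc itself was the more abundant. Its FPKM lay between 67.9 and 76.9, and the ratio of Myc to Mycn ran from 5.06 in the HU210 library at 2 h to 7.13 in the DMSO library at 8 h, with a median of 6.11. Max, the gene of the shared partner of both factors, was at 26.0 to 31.4. Mycl had a median of 0.310. Ddx1 and Nbas, the neighbors of MYCN that are often amplified with it in human tumors, were at 97.2 to 127.8 and 6.12 to 8.32.

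At 4 h, 2 of 17 tested genes of the MYC family and its partners were higher by 1.3-fold, Zbtb17 at 0.52 and Mxd3 at 0.39, and Mxi1 was lower at -0.45. Of 18 tested targets of MYC and N-Myc, 4 were lower at 4 h: the ornithine decarboxylase gene Odc1 at -0.57, the p53 antagonist gene Mdm2 at -0.56, the nucleolin gene Ncl at -0.50 and the cap-binding factor gene Eif4e at -0.59. At 4 h 28.9% of all genes tested were past the cutoff in either direction. With the GC and length trend removed, 1 target was still lower and 0 genes of the family and its partners were past the cutoff. At 2 h, where 5.4% of all genes tested were past the cutoff in either direction, 0 of these 17 and 0 of these 18 genes were past it.

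Phox2a (chromosome 7, 108966827 to 108971680, plus strand) had an FPKM of 46.4, 29.1, 50.9 and 34.6 with HU210, by hour. The DMSO values were 48.2, 48.1, 38.2 and 33.4. The HU210 library at 4 h was the lowest of the 8 and that at 6 h the highest. Its log2 difference was -0.05, -0.71, 0.40 and 0.05.

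Hand2 (chromosome 8, 59799780 to 59803314, plus strand) had an FPKM of 76.6, 72.8, 107.9 and 78.9 with HU210. Under DMSO it was 91.6, 105.1, 74.7 and 70.5. The order of treatments turned between 4 h and 6 h, as it did for Phox2a. The log2 differences of Hand2 were -0.25, -0.52, 0.53 and 0.16.

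Phox2a and Hand2 were thus the members past 1.3-fold at 4 h, both lower, and again the members past it at 6 h, both higher. At 4 h, 19.9% of all genes tested were lower by 1.3-fold, and at 6 h 6.39% were higher and 8.1% higher or lower. Both steps together, lower at 4 h and higher at 6 h, were found in 506 genes, 4.48% of those tested. Phox2a at 4 h was the single value past 1.5-fold among all members and hours, and 11.5% of the genes tested passed that cutoff at 4 h. In either direction, 28.9% passed 1.3-fold at 4 h, and 19.9% did so once the GC and length trend was taken out.

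The libraries of 4 h stood apart from the others. Levels in the HU210 library at 4 h rose with the GC content of the transcript relative to the other libraries (Spearman's rho 0.45 over 11306 genes), and those in the DMSO library at 4 h fell with it (-0.46). The correlation of these libraries with each other, 0.973 on the log2 scale, was the lowest of any pair, the highest being 0.993. Across genes the log2 difference at 4 h had a rho of 0.50 with GC content, and that at 6 h one of -0.27. Phox2a and Hand2 transcripts have a GC content of 62.3% and 61.2%, the highest of the 8 members, so their lower value at 4 h ran against the trend.

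After removal of the trend on GC content and length, the log2 difference of Phox2a was -0.86 at 4 h and 0.36 at 6 h, and that of Hand2 was -0.69 and 0.49. The pattern of lower at 4 h and higher at 6 h by 1.3-fold then fell to 1.89% of all genes, Hand2 among them. With the DMSO libraries averaged, Hand2 was at -0.21 at 4 h and 0.35 at 6 h, neither past the cutoff, and Phox2a at -0.50 and 0.29. The DMSO libraries themselves differed, since Hand2 ranged from 70.5 to 105.1 and Phox2a from 33.4 to 48.2 among them.

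The 3′ end of Phox2a lies over that of Inppl1, a gene of the opposite strand that encodes a lipid phosphatase, with 534 shared exon bases or 26.1% of the exon bases of Phox2a. Whether the libraries kept strand is not given in the sources used here, so reads of the shared part cannot be told apart. The FPKM of Inppl1 lay between 21.9 and 27.8, with a log2 difference of -0.06 at 4 h and 0.17 at 6 h.

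Over the 4 time points, neither gene differed between HU210 and DMSO beyond the spread, which includes the turn between 4 h and 6 h. The difference was -0.08 ± 0.18 log2 units for Phox2a and -0.02 ± 0.18 for Hand2 (SE, limma, adjusted p = 1 for both), with HU210 higher at 2 of 4 time points in each. Without the 4 h libraries these values turned to 0.13 and 0.14, and without the 2 h libraries that of Hand2 was 0.054. A linear change of the difference with the hour was 0.071 ± 0.078 log2 units per hour for Phox2a and 0.11 ± 0.064 for Hand2 (adjusted p = 0.96 in limma for both).

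**Figure D3:**
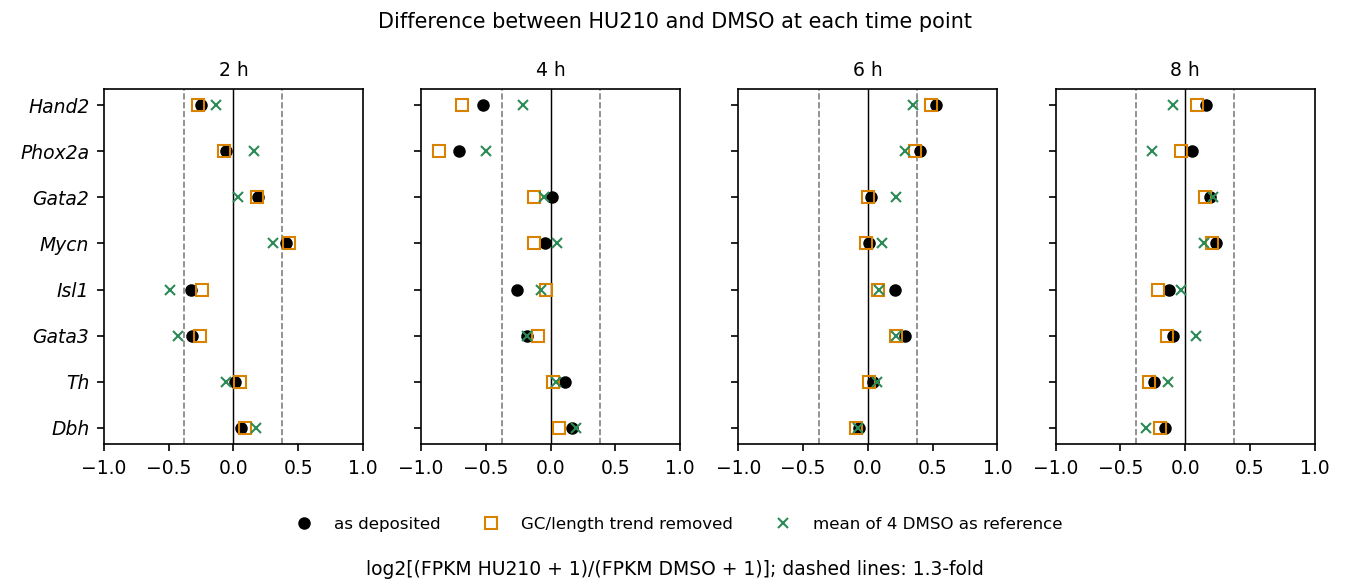
Log2 difference between HU210 and DMSO at each time point for the 8 genes, as deposited (black circles), with the GC and length trend removed (orange squares) and relative to the average DMSO library (green crosses), with dashed lines at 1.3-fold. Hand2 and Phox2a lie left of the line at 4 h and right of it at 6 h as deposited, at -0.52 and -0.71 and at 0.53 and 0.40.

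Of the 14 tested noradrenergic partners, 4 were lower by 1.3-fold at 4 h and 0 higher, among them Insm1, which encodes a zinc finger factor of neuroendocrine cells, at -0.50, and the SOX factor gene Sox4 at -0.68. Of all genes tested 19.9% were lower and 8.97% higher at that hour. At 6 h Insm1 was at 0.36 and Sox4 at 0.19. With the GC and length trend removed, 3 were lower at 4 h and 1 higher, beside 10% and 9.91% of all genes. The median over the 14 was -0.13 at 4 h, beside -0.08 over all genes tested, and 0.10 at 6 h, beside 0.06.

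Of the same partners, 0 were past 1.3-fold at 2 h, where 5.4% of all genes tested were past it in either direction. At 6 h 1 was higher and 0 lower, where 8.1% of all genes tested were past the cutoff in either direction. At 8 h 0 were higher and 1 lower, beside 5.82% of all genes tested in either direction. Across the 8 libraries Pearson's r of log2(FPKM + 1) was 0.80 between Phox2a and Hand2. It is a description over 8 libraries, which include the 4 h libraries with their GC trend.

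Gata2 (chromosome 6, 88143885 to 88157024, plus strand) had an FPKM of 38.6, 36.2, 43.9 and 43.7 with HU210 at the 4 time points. With DMSO it was 33.6, 35.8, 43.2 and 38.2. HU210 was the higher at each hour, by log2 differences of 0.19, 0.01, 0.02 and 0.19. The mean over the time points was 0.10 ± 0.08 (SE, limma, adjusted p = 1). Higher in 4 of 4 pairs gave p = 0.125 in the exact two-sided sign-flip permutation test, which is the smallest that 4 pairs allow, and the ranges of the treatments overlapped.

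Gata3 (chromosome 2, 9778705 to 9811661, minus strand) had an FPKM of 3.26, 4.06, 5.66 and 5.08 with HU210. With DMSO it was 4.32, 4.75, 4.45 and 5.50. The HU210 library at 2 h was the lowest of the 8, and the treatments overlapped. The log2 difference was -0.32, -0.19, 0.29 and -0.10, inside 1.3-fold throughout, and 0 of 8 members were past that cutoff at 8 h. With the DMSO libraries averaged, Gata3 was at -0.43 at 2 h, past it. Its gene model shares 77 exon bases with 9230102O04Rik on the same strand and 155 with Gm13256 on the other. The RefSeq promoter of Gata3, at 9800178 to 9800477, lies inside the span of this model.

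The ratio of Gata2 to Gata3 was 6.94 to 11.8, with a median of 8.19, and was highest in the HU210 library at 2 h. Gata4, better known from heart and endoderm, had an FPKM of 22.8 to 43.8, and the ratio of Gata2 to Gata4 ran from 0.766 to 1.91 with a median of 1.57. Its highest value was that of the DMSO library at 2 h, where it exceeded Gata2, and its log2 difference at 2 h was -0.77. Gata1 reached 0.106. Among partners of GATA factors, Lmo2, which encodes a LIM-only bridging protein, was at -0.83 at 4 h and 0.65 at 6 h, with levels of 4.74 to 11.8, and Tal1 lay between 4.295 and 5.78.

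Isl1 (chromosome 13, 117088478 to 117099896, minus strand) had an FPKM of 6.73, 9.27, 10.5 and 9.62 with HU210. Under DMSO it was 8.72, 11.3, 8.95 and 10.6. As for Gata3, the HU210 library at 2 h was the lowest, and HU210 was the higher at 6 h alone. The log2 difference was -0.33, -0.26, 0.21 and -0.12, and -0.49 at 2 h relative to the average DMSO library. Over the time points it was -0.13 ± 0.11 for Isl1 and -0.08 ± 0.11 for Gata3 (SE, limma, adjusted p = 1 for both).

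Isl2, the paralog of Isl1, was lower, and the ratio of Isl1 to Isl2 ran from 2.23 to 4.57. Ldb1, whose product joins LIM-homeodomain and GATA complexes, was at 43.4 to 53.4. Of the 13 tested family members and cofactors of GATA factors, ISL1 and HAND2, 5 were lower and 1 higher by 1.3-fold at 4 h, beside 19.9% and 8.97% of all genes tested. With the GC and length trend removed, 2 were lower and 0 higher, beside 10% and 9.91%.

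Th encodes tyrosine hydroxylase, the rate-limiting enzyme of catecholamine synthesis, and lies on chromosome 7 from 150078657 to 150117033 on the minus strand. The promoter shown, at 150085851 to 150086150, lies inside this span, so the gene model begins upstream of the RefSeq start. The FPKM of Th was 1.90, 2.104, 2.17 and 1.75 with HU210. The DMSO libraries were at 1.88, 1.87, 2.09 and 2.25. The libraries of 8 h held both the lowest and the highest value. The log2 difference was 0.01, 0.11, 0.04 and -0.24, and over the time points -0.02 ± 0.09 (SE, limma, adjusted p = 1).

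Dbh encodes dopamine beta-hydroxylase, which turns dopamine into noradrenaline, and lies on chromosome 2 from 27020753 to 27038720 on the plus strand. Its FPKM was 1.40, 1.44, 1.02 and 0.727 with HU210. The DMSO libraries were at 1.298, 1.17, 1.12 and 0.928. Within each treatment the 6 h and 8 h values were below the 2 h and 4 h values. The log2 difference was 0.06, 0.17, -0.07 and -0.16, and over the time points -7.5e-05 ± 0.086 (SE, limma, adjusted p = 1).

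The ratio of Th to Dbh was 1.36 and 1.45 at 2 h with HU210 and DMSO, and 2.41 and 2.42 at 8 h. Hand2, a factor upstream of both enzymes, exceeded Th by 31.4-fold to 56.1-fold in level. The other steps of amine synthesis and storage were not all low. Ddc, which encodes the decarboxylase between TH and DBH, was at 0.663 to 1.28, but Gch1, needed for the cofactor of TH, was at 31.2 to 40.8 and exceeded Th by a median of 16.2-fold.

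The vesicular transporter gene Slc18a2 was at 16.5 to 20.6 and exceeded Th by a median of 9.30-fold, and its paralog Slc18a1 was at 1.04 to 4.03. Of the 10 tested genes of synthesis, storage and breakdown, 4 were higher and 1 lower by 1.3-fold at 4 h, beside 8.97% and 19.9% of all genes tested. Those past it included Gchfr at 0.996, which encodes the feedback regulator of GCH1, the cofactor genes Spr at 0.60 and Pcbd1 at 0.38 and, lower, Pts at -0.61. With the GC and length trend removed, 3 were higher and 1 lower, beside 9.91% and 10%. At 2 h 1 was higher and 1 lower, Slc18a1 at -0.42, beside 5.4% of all genes tested in either direction. At 6 h Slc18a1 was higher at 1.03, or 0.90 with the trend removed, and 0 were lower, beside 8.1%. At 8 h 0 were past the cutoff, beside 5.82%. Pnmt, Slc6a2, Maoa and Maob were looked up by symbol and were not found in the expression table, so their levels are unknown.

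With all hours in 1 fit, limma called 0 of the 8 members and 0 of all 11306 genes different between HU210 and DMSO at an adjusted p of 0.05. At an unadjusted p under 0.05, 148 genes passed, 1.31% of those tested, and 0 of them were members or genes of the 11 lists. The libraries with HU210 were all above those with DMSO in 0.371% of the genes, and for every member the treatments overlapped. A p that misses the threshold does not show that the levels are equal.

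Levels were also compared by hour over the 8 libraries, with the treatment as a covariate. limma again called 0 of all genes, with 1318 genes, or 11.7%, at an unadjusted p under 0.05. Of the members 2 were in that number. Whether the libraries of all hours were normalized in 1 run is not given in the sources used here.

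Dbh had a slope of -0.062 ± 0.018 log2 units per hour (SE, unadjusted p = 0.0085, adjusted p = 0.30 in limma). Its mean FPKM was 1.33 ± 0.119 (SD) in the 4 libraries of 2 h and 4 h and 0.949 ± 0.167 in the 4 of 6 h and 8 h, and their ranges, 1.17 to 1.44 and 0.727 to 1.12, did not overlap. In 2.2% of all genes tested the early libraries were all above the late ones. Without the 8 h libraries the slope was -0.045 and its unadjusted p in limma 0.18.

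Gata3 had a slope of 0.068 ± 0.023 (SE, unadjusted p = 0.016, adjusted p = 0.33 in limma), with a mean FPKM of 4.10 early and 5.17 late and overlapping ranges. Without the 2 h libraries its unadjusted p in limma was 0.19, and without those of 8 h 0.082. Gata2, with a slope of 0.040 ± 0.019, and Isl1, with 0.050 ± 0.026, had adjusted p of 0.45 and 0.51 in limma. The slope of Phox2a was -0.058 ± 0.039, and those of Mycn, Hand2 and Th were smaller than their SE. Between Gata3 and Isl1 Pearson's r over the 8 libraries was 0.86, and between Gata3 and Dbh -0.76.

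**Figure D4:**
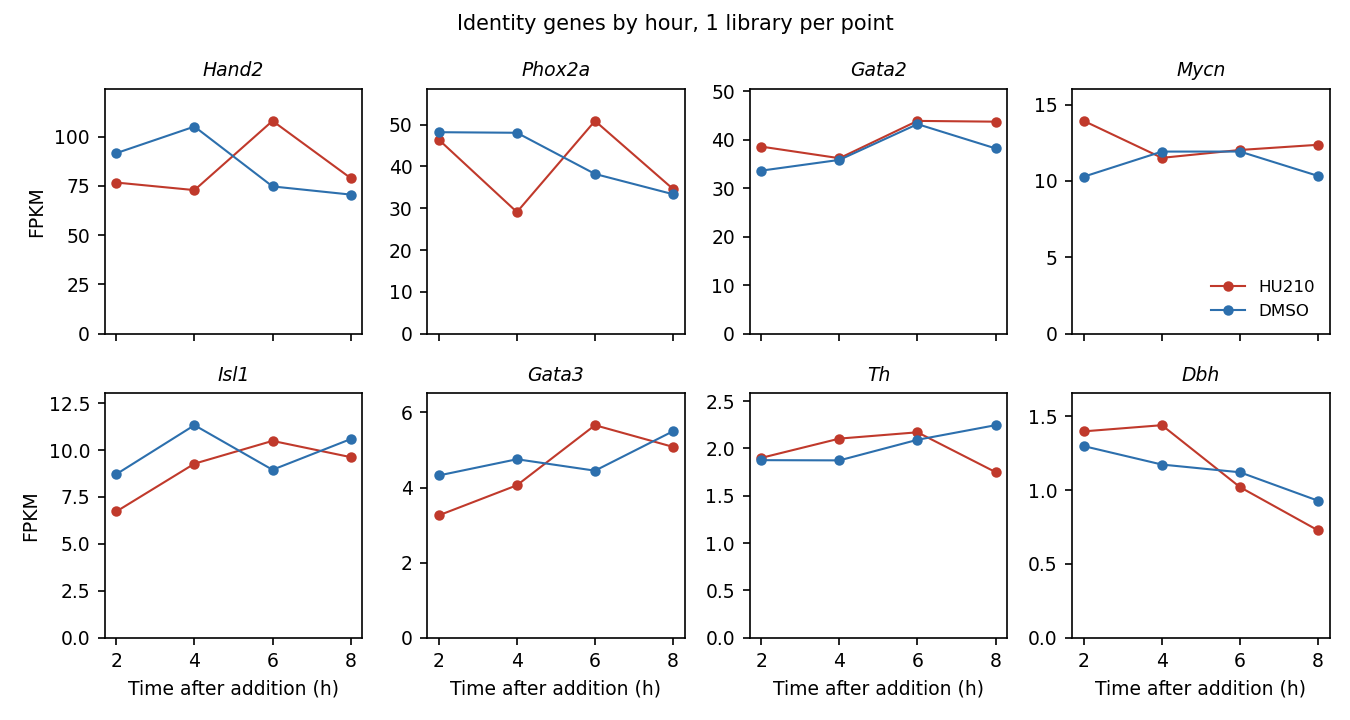
FPKM of each of the 8 genes against the hour after addition of HU210 (red) or DMSO (blue), 1 library per point, each axis from 0. The curves of Hand2 and Phox2a cross between 4 h and 6 h, and those of Dbh end at 0.727 and 0.928 at 8 h from 1.40 and 1.298 at 2 h.

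The share of 11.7% is the background for the lists. Of 18 tested MYC and N-Myc targets, 7 had an unadjusted p under 0.05 in limma, of which 1 had a positive slope. Of 17 genes of the MYC family and its partners 7 did, 4 of them with a positive slope. Of 14 noradrenergic partners there were 2, both positive, Klf7 among them, and of 10 genes of amine synthesis and storage 1, Qdpr, negative. The smallest adjusted p among these lists in limma was 0.29. Sox9, a neural crest gene, had the smallest of any list, 0.20.

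A change with the hour in the difference between HU210 and DMSO was called in 0 genes at an adjusted p of 0.05 in limma. At an unadjusted p under 0.05 there were 326 genes, or 2.88%, and 0 of them were members.

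For each member, genes among the 3 of most similar course are given, by Pearson's r of log2(FPKM + 1) over the 8 libraries, among all other genes with a mean FPKM of at least 5, which were 8612 for most members. Phox2a was closest to Samhd1 (0.99), Cox7b2 (0.98) and Tmbim4 (0.98). Hand2 was closest to Maz (0.98), Wasf3 (0.98) and Dr1 (0.97). Gata2 followed Fosl2 (0.98) and Cdr2l (0.97), and Gata3 followed Wnk3 (0.98), Plekha2 (0.95) and Nxpe3 (0.94).

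Isl1 had r of 0.96 with both Atxn2 and Tspan2. Mycn had Ttpal (0.91), Sox8 (0.90) and Zfp36l2 (0.88) as its nearest genes, and Th had Rap1gap2 (0.93), Tyro3 (0.89) and Tbcd (0.84). The nearest gene to Dbh was Npy (0.95), which encodes a peptide that sympathetic neurons release with noradrenaline, before Cela1 (0.92) and Snhg15 (0.92). Each r was picked as among the highest of many over 8 points, which share their hours and the GC trend of the libraries, and no p is given.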

How the data were processed

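The authors mapped the reads of the 8 libraries to mm9 with TopHat2 2.0.8, Bowtie2 2.1.0 and SAMtools 0.1.7, with Ensembl gene models, and computed FPKM with Cufflinks and Cuffdiff, with upper-quartile normalization and correction for fragment bias and multiply mapped reads. No version of Cufflinks or of the models is given in the sources used here. The FPKM were deposited with 1 added, which was subtracted here. The deposited fold changes, p-values and q-values, and a second table of differentially expressed genes, were not used. Counts per gene were not analysed here, so the depth behind an FPKM is unknown.

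Genes listed at all 4 time points with a mean FPKM of at least 1 (11306) were tested on log2(FPKM + 1) with limma 3.58.1 in R 4.3.3, with a mean-variance trend, two-sided, and Benjamini-Hochberg adjustment over all of them. HU210 and DMSO were compared with the time point as a block, because each hour has 1 library of each. The pooled experiments are not replicates in these tests, and p-values measure the spread between libraries. In the comparison of treatments this spread holds both library noise and any change of the difference with the hour. With 1 library per condition these cannot be told apart. Trends on GC and length were fitted by loess (span 0.3, degree 1) with exon unions of GENCODE on mm9. The steps were tested on simulated data, in which 99% of 200 genes changed by 1 log2 unit were recovered in the comparison of treatments over 11306 genes. Of the unchanged genes 17 were called as well. These changes were the same at every hour and larger than any member's over the time points, and the noise held no GC trend. Recovery of smaller changes was not tested.

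The members and the 11 gene lists were chosen with earlier results of these data known. Genes named are the 8 members, genes of the lists, the 3 genes most alike to each member, and Inppl1, which overlaps Phox2a. Some genes that this rule names are not reported here. Promoters come from the RefSeq table of GRCm38.p6 and were placed on mm9 by exact match. Alternatives were a pseudocount of 0.1, a 1.5-fold cutoff, other filters and scalings, another reference, the trend removed, no block, limma without trend, late against early libraries and leaving out each hour. Other steps used Python 3.11.15, scipy 1.17.1, pandas 2.3.3, numpy 2.4.6 and, for figures, matplotlib 3.10.9.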

Additional observations from a re-analysis of the deposited data

Results flagged for a closer look

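For both Phox2a and Hand2, the difference between treatments had opposite directions at 4 h and 6 h. The log2 difference between HU210 and DMSO was -0.71 at 4 h and 0.40 at 6 h for Phox2a. For Hand2 it was -0.52 at 4 h and 0.53 at 6 h. With 1 library per treatment and hour, the difference between these hours was not tested. With the trend on GC and length of these libraries removed, the values were -0.86 and 0.36 for Phox2a and -0.69 and 0.49 for Hand2. A linear change of the difference per hour, fitted with limma, was 0.071 ± 0.078 log2 units for Phox2a and 0.11 ± 0.064 for Hand2 (SE, adjusted p = 0.96 for both).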

How the results depend on the processing

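Limits are the 1 library per condition, the unknown depth per gene and the GC trend of the 4 h libraries. The count of members past 1.3-fold at 2 h was 1, Mycn, and was 0 at 1.5-fold. It became 2 with a pseudocount of 0.1, where Gata3 was added at -0.40. With the 4 DMSO libraries averaged as the reference it was also 2, but these were Gata3 at -0.43 and Isl1 at -0.49. Mycn, at 0.31, was not past the cutoff with that reference. The count at 4 h was 2 and became 1 with that reference and 1 at 1.5-fold. The count at 6 h was 2 and became 1 with each pair centred on its median ratio, 1 with the GC and length trend removed, 0 with that reference and 0 at 1.5-fold. Pairing by hour was checked by the correlation of the deviations of same-hour libraries from their treatment means, which was 0.44, -0.39, 0.07 and 0.27 in order of time, so that the hours did not pair the libraries throughout. Without the time block the comparison of HU210 and DMSO called 0 genes, with 91 at an unadjusted p under 0.05 in limma, and the log2 difference of Mycn was 0.15. All limma comparisons called 0 genes under every alternative run, with 80 to 444 genes at an unadjusted p under 0.05 for the treatments.

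Leaving out the libraries of each hour in turn turned the sign of some estimates that were not called. The log2 difference over the time points ranged from -0.24 to 0.13 for Phox2a, from -0.21 to 0.14 for Hand2, from -0.20 to 0.0029 for Gata3, from -0.064 to 0.053 for Th and from -0.056 to 0.053 for Dbh, which was also 0.00036 with the libraries centred on their median. The slope by hour ranged from -0.057 to 0.025 for Hand2 and from -0.0052 to 0.076 for Isl1. The change of the difference per hour ranged from -0.098 to 0.071 for Mycn, from -0.043 to 0.044 for Gata2 and from -0.088 to 0.0061 for Th. The cause was not tested. The other 202 estimates of members kept their sign and their side of the threshold.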
